A study of Mus musculus with 6 samples.

Results

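The interferon-inducible GTPases described here are 10 genes of 2 families, the guanylate-binding proteins (GBPs) Gbp2, Gbp3, Gbp5, Gbp7 and Gbp9 and the immunity-related GTPases (IRGs) Irgm1, Irgm2, Igtp, Iigp1 and Tgtp1. They are the rows of the count table that carry these symbols, 10 of 41549 genes, and all 10 passed the filter on low counts that left 11933 genes for testing. The table holds mRNA sequencing of bone marrow-derived macrophages (BMDMs) of wild-type C57Bl/6 N mice, differentiated with M-CSF. The cells were transfected with a locked nucleic acid antisense oligonucleotide against 5′tRF-Glu(CTC), a fragment of the 5′ end of a glutamate transfer RNA (αGlu), or with a control antisense (Ctr), and were then polarized into M2 macrophages with the cytokines IL-4 and IL-13. Lipofection, antisense chemistry and both cytokines were therefore common to the 2 groups, and no library without transfection or without polarization is analysed here. Each group had 3 libraries, numbered 1 to 3. They were described as independent experiments, but the labels name no animal or culture, so the p-values measure the spread between these libraries only. The antisense and its listed target sequence are shown because they define the comparison, with the paired bases in capitals and both strands read 5′ to 3′. The target sequence printed has 21 bases and is a part of the fragment, which the paper describes as longer.
antisense oligonucleotide: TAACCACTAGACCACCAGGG
target fragment: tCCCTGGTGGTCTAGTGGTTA

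GBPs and IRGs are large GTPases of the dynamin superfamily that macrophages make in response to interferons. Interferon-gamma acts through its receptor and the kinases JAK1 and JAK2, and type I interferons act through their own receptor and a complex that holds IRF9. The proteins coat the vacuoles of intracellular parasites and bacteria and help to break them open, and GBPs also feed bacterial products to inflammasomes. Among the IRGs, Irgm1, Irgm2 and Igtp (also called Irgm3) are regulators that hold the effector IRGs inactive on the membranes of the cell itself, whereas Iigp1 (Irga6) and Tgtp1 (Irgb6) are effectors that load onto the vacuole.

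The libraries held 17912831 to 30386653 reads in genes. Macrophage markers were present in every library, with 10 of 10 above 1 CPM (reads of a gene scaled to the size of its library) on average, and 9 of 10 markers of alternative activation were too. T and NK cell markers, whose cells are the usual source of interferon-gamma, were near absence, with 0 of 10 above 1 CPM and a summed level of 0.182 to 0.293 CPM in Ctr and 0.0574 to 0.346 CPM in αGlu; Cd3g, Trac and Nkg7 had no read. Of 9 neutrophil markers, 3 were above 1 CPM on average; their sum was 107 to 160 CPM in Ctr and 186 to 609 CPM in αGlu and was nearly all Csf3r, with 103, 141 and 158 CPM in Ctr and 183, 536 and 607 CPM in αGlu. The defining markers were at or near 0, with no read of Ly6g and S100a9 at 0.139 to 0.954 CPM in Ctr and 0 to 0.115 CPM in αGlu. A library of each group stood apart. Ctr1 was low in interferon-stimulated genes, with Irf7 at 43.9 CPM against 475 and 559 CPM in Ctr2 and Ctr3. αGlu1 lacked part of what set αGlu2 and αGlu3 apart from Ctr, with Il1b at 0.0574 CPM against 322 and 345 CPM, and 0.278 to 0.454 CPM in Ctr. Each result below is therefore also given without these libraries where they matter.

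Per unit of transcript length, Gbp2 was the most abundant of the 10 genes and Tgtp1 the least. On the deposited TPM scale (scaled to library size and divided by transcript length), the means over all 6 libraries were 304 for Gbp2, 143 for Irgm1, 104 for Gbp3, 96.0 for Igtp, 86.2 for Irgm2, 66.4 for Gbp9, 42.5 for Gbp7, 33.4 for Iigp1, 18.5 for Gbp5 and 3.54 for Tgtp1. Gbp2 lay above Irgm1, Irgm1 above Gbp3, Igtp above Irgm2 and Gbp5 above Tgtp1 in 6 of 6 libraries. Neighbours that changed places in some libraries were Gbp3 and Igtp, ordered this way in 4 of 6 libraries, Gbp9 and Gbp7, likewise in 4, and Irgm2 and Gbp9, Gbp7 and Iigp1, and Iigp1 and Gbp5, each in 5. The summed TPM of the 10 genes was 329, 846 and 938 in Ctr1, Ctr2 and Ctr3 and 1266, 1070 and 941 in αGlu1, αGlu2 and αGlu3. All αGlu sums were thus higher than all Ctr sums, but αGlu3 exceeded Ctr3 by little. The group means were 704 ± 328 in Ctr and 1092 ± 164 in αGlu (SD, n = 3). Ctr2 and Ctr3 alone averaged 892.

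In the annotation of the mouse genome (GENCODE M21, GRCm38), the genes lie in clusters. Gbp5 (chromosome 3, 142493978 to 142522344, plus strand), Gbp7 (142530342 to 142550149), Gbp3 (142560026 to 142573209) and Gbp2 (142620602 to 142638008) are neighbours on chromosome 3, and Gbp9 lies in the other GBP cluster on chromosome 5 (105077630 to 105139539, minus strand). Irgm1 (48861968 to 48871683, minus strand) and Tgtp1 (48985327 to 48994172, minus strand) are on chromosome 11, as are Igtp (58199556 to 58207591, plus strand) and Irgm2 (58199618 to 58222782, plus strand), whose annotated spans overlap on the same strand. Iigp1 is on chromosome 18 (60376027 to 60392634, plus strand). All 10 are annotated as protein-coding, and the values are given per gene. How reads in overlapping spans were assigned is not given in the sources used here.

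**Figure D1:**
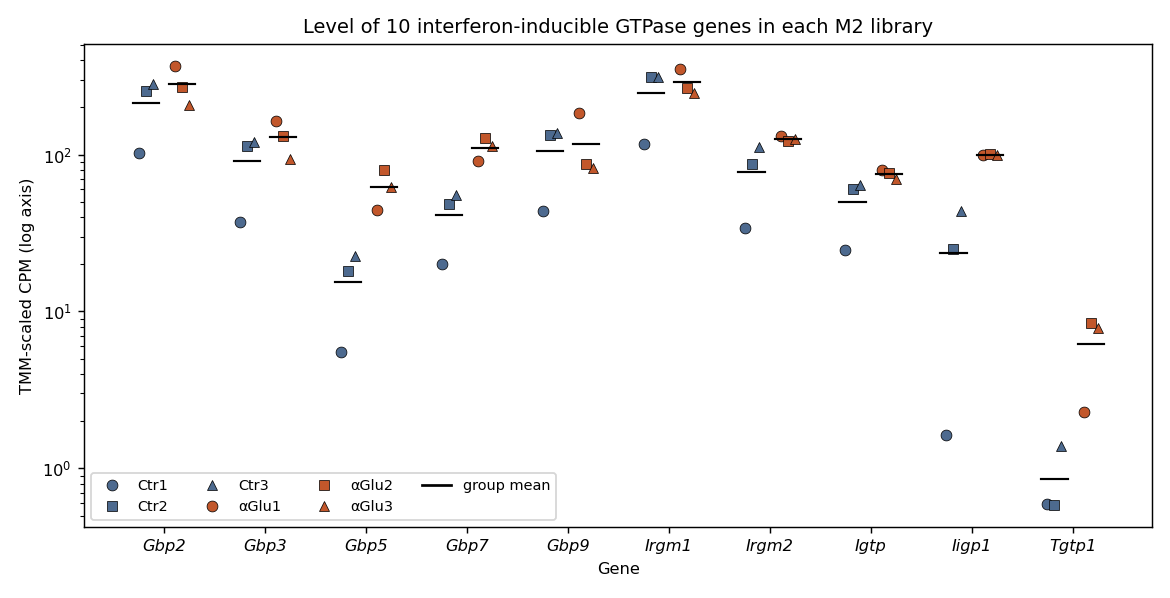
Level of each of the 10 GTPase genes in each library, in CPM scaled by the trimmed mean of M-values, on a log axis; blue symbols are Ctr, orange symbols αGlu, the shape gives the library number and bars mark group means (n = 3). Ctr1 is the lowest library for 9 genes, and the αGlu symbols lie above all Ctr symbols for Gbp5, Gbp7, Irgm2, Igtp, Iigp1 and Tgtp1.

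Among the GBPs, Gbp5 and Gbp7 were higher in every αGlu library than in any Ctr library, while Gbp2, Gbp3 and Gbp9 overlapped. Gbp5, which promotes assembly of the NLRP3 inflammasome, had 5.54, 18.1 and 22.5 CPM in Ctr1 to Ctr3 and 44.6, 80.2 and 62.1 CPM in αGlu1 to αGlu3. Its group means were 15.4 ± 8.8 and 62.3 ± 17.8 CPM (SD, n = 3), and its log2 fold change, αGlu over Ctr, was 2.02 ± 0.52 (SE). This was the largest difference among the GBP members, about as large without Ctr1 (1.62 ± 0.29) as without αGlu1 (2.20 ± 0.48). Gbp7, linked to assembly of the NADPH oxidase on phagosomes, had 20.03, 48.5 and 55.6 CPM in Ctr and 90.8, 127 and 113 CPM in αGlu. Its log2 fold change was 1.41 ± 0.38, and 1.09 ± 0.18 without Ctr1. For both genes αGlu1 was the lowest αGlu library and Ctr1 the lowest Ctr library. A different amount of RNA per cell and a different number of cells making it cannot be told apart in bulk RNA, here or for the genes that follow.

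Gbp2, a prenylated GBP that coats vacuoles of Toxoplasma, had 103, 253 and 284 CPM in Ctr and 367, 268 and 206 CPM in αGlu. The Ctr2 and Ctr3 values lay inside the αGlu range. Gbp3 had the same pattern, with 37.1, 113 and 121 CPM in Ctr and 164, 131 and 93.1 CPM in αGlu. Gbp9 had 43.9, 133 and 138 CPM in Ctr and 184, 86.9 and 81.7 CPM in αGlu, so that αGlu2 and αGlu3 lay below Ctr2 and Ctr3 and above Ctr1 alone. The log2 fold changes of these 3 genes over all libraries were 0.39 ± 0.41 for Gbp2, 0.52 ± 0.46 for Gbp3 and 0.16 ± 0.52 for Gbp9. Without both libraries numbered 1 they were negative, at -0.18 ± 0.14, -0.065 ± 0.16 and -0.68 ± 0.08.

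Among the 5 IRG members, the effectors Iigp1 and Tgtp1 had the largest log2 fold changes and the regulator Irgm1 the smallest. For Tgtp1 this rests on few reads of a gene with a near-identical copy, Tgtp2. The summed reads of both overlapped between the groups, with a log2 fold change of 0.85 ± 0.69, so a contrast of effectors with regulators is not shown by Tgtp1. Irgm1 had 117, 312 and 314 CPM in Ctr and 352, 266 and 247 CPM in αGlu, with a log2 fold change of 0.22 ± 0.39. Its αGlu2 and αGlu3 values lay between Ctr1 and the other Ctr libraries. Irgm2 had 33.8, 86.8 and 111 CPM in Ctr and 132, 122 and 126 CPM in αGlu. Igtp had 24.5, 60.4 and 64.2 CPM in Ctr and 79.2, 75.8 and 69.9 CPM in αGlu. For both regulators the groups did not overlap, but the distance from Ctr3 to the lowest αGlu library was small. The log2 fold change of Irgm2 was 0.71 ± 0.41 over all libraries and 0.36 ± 0.13 without Ctr1, and that of Igtp was 0.59 ± 0.35 and 0.28 ± 0.09.

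Iigp1 was the member with the widest range in Ctr and the narrowest in αGlu. It had 1.64, 25.0 and 43.7 CPM in Ctr, from 36, 598 and 943 reads, and 99.2, 101 and 99.5 CPM in αGlu. Ctr2 and Ctr3 together averaged 21.02 times Ctr1, against 1.67 to 3.67 times for the other 9 members. The group means were 23.5 ± 21.1 and 99.9 ± 1.0 CPM (SD, n = 3). The log2 fold change was 2.09 ± 0.94 over all libraries and 1.55 ± 0.25 without Ctr1. Tgtp1 was the scarcest member, with 13, 14 and 30 reads in Ctr and 40, 270 and 215 reads in αGlu, or 0.591, 0.586 and 1.39 CPM against 2.29, 8.50 and 7.89 CPM. It was the member in which Ctr1 was not the lowest library, as Ctr2 lay just under it. Its log2 fold change was 2.87 ± 0.62, and αGlu1 lay 3.57 times below the mean of αGlu2 and αGlu3.

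Across the 10 genes, all fold changes over the 6 libraries were positive, with a median log2 fold change of 0.65 against 0.02 over all 11933 genes tested. Beside this, 9 of the 10 had their lowest value in Ctr1 (21.5% of all genes tested) and 6 of the 10 had their highest in αGlu1 (13.6%). No member was called by edgeR's quasi-likelihood test (Benjamini-Hochberg adjusted p under 0.1, with a fold of more than 1 on the log2 scale in either direction), 0 of 10, and the background was likewise 0% of all genes. The adjusted p was 0.154 for Tgtp1, 0.156 for Gbp5, 0.157 for Gbp7, 0.227 for Iigp1 and 0.303 to 0.852 for the other 6. At an unadjusted p under 0.05, 3 members were higher in αGlu (Gbp5, Gbp7 and Tgtp1), where the share over all genes was 12.7%. DESeq2 on the same counts called 4 members higher, where it called 4.23% of all genes with an adjusted p: Tgtp1 (adjusted p = 0.000415), Gbp5 (0.00295), Gbp7 (0.00813) and Iigp1 (0.0903). It called 0 members lower (3.93% of all genes).

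By edgeR, the call of these genes changed when αGlu1 was left out, alone or together with Ctr1, and not when Ctr1 alone was left out. The libraries numbered 1 were singled out because their values stood apart in these same data. Leaving them out can lower the spread within a group by selection. The adjusted p-values of such fits, here and further on, therefore describe the fits and are no separate evidence of a difference. Without αGlu1, edgeR called Gbp5, Gbp7 and Tgtp1 higher (adjusted p = 0.0132, 0.0209 and 0.000905), 3 members where 8.05% of all genes were called higher. Without Ctr1 it called 0 members and 0% of all genes. Without both, with 2 libraries a group, it called 4 members higher, Gbp5, Gbp7, Iigp1 and Tgtp1 (adjusted p = 0.000394, 0.00034, 0.00337 and 0.000932), where the share of all genes was 8.28%. With no limit on the fold, 6 members were higher in that fit (23.7% of all genes) and 2 were lower (25%), Gbp9 with an adjusted p of 0.000996 and Irgm1 with 0.0327. The median log2 fold change of the 10 genes was 0.32 without Ctr1, 0.61 without αGlu1 and 0.27 without both, against 0.03, 0.01 and 0.02 over all genes.

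**Figure D2:**
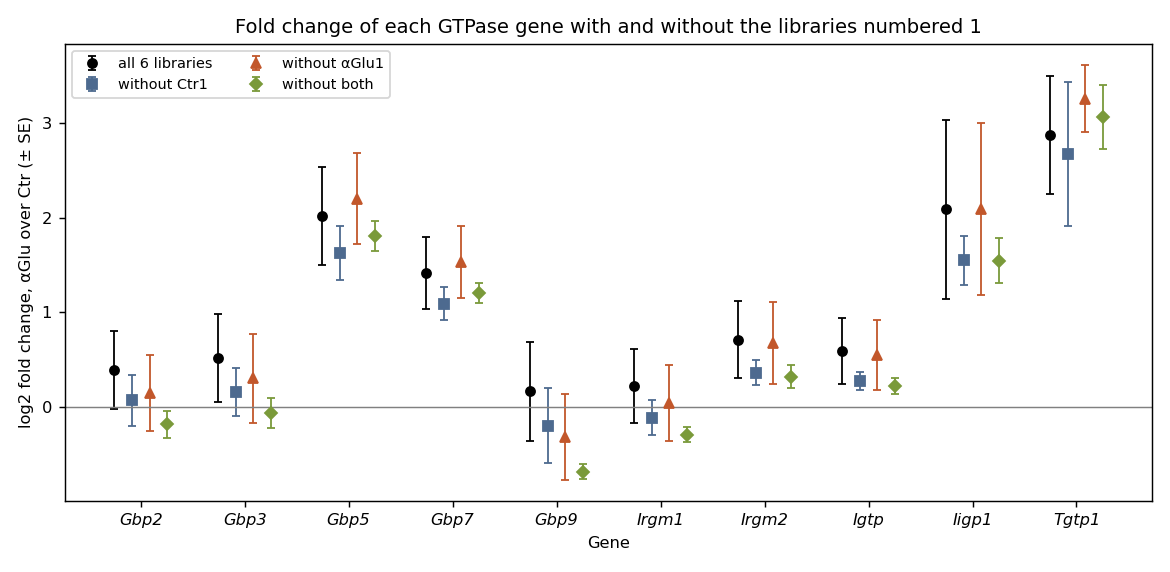
log2 fold change, αGlu over Ctr, of each of the 10 genes with its standard error from edgeR, over all 6 libraries, without Ctr1, without αGlu1 and without both. Gbp5, Gbp7, Iigp1 and Tgtp1 stay above 1 in all 4 fits, whereas Gbp2, Gbp3, Gbp9 and Irgm1 fall below 0 without both libraries.

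In Gbp5, Gbp7, Irgm2, Igtp, Iigp1 and Tgtp1 every αGlu value lay above every Ctr value, 6 of 10 members where the share of all genes tested was 14.2%. The reverse held for 0 of 10 members and 15.9% of all genes. With Ctr1 left out the count was also 6, beside 18.1% of all genes. A view that does not depend on how high the 10 genes were together in a library is the share each member held of their summed TPM. The shares are parts of 1 whole, so a higher share of some members lowers that of others. Gbp5 held 0.781%, 0.962% and 1.08% in Ctr and 1.65%, 3.62% and 3.27% in αGlu. Gbp7 held 3.34%, 3.04% and 3.16% in Ctr and 3.96%, 6.76% and 7.04% in αGlu. In both, the Ctr libraries were close together and Ctr1 no longer stood apart. Iigp1 held 0.263%, 1.51% and 2.40% in Ctr and 4.17%, 5.19% and 5.97% in αGlu. Irgm1 went the other way in share, with 18.8%, 18.9% and 17.3% in Ctr and 14.9%, 13.7% and 14.9% in αGlu, again with no overlap. Its CPM overlapped between the groups, with a log2 fold change of 0.22 ± 0.39, so this lower share does not show a lower level. Tgtp1 held 0.172%, 0.0643% and 0.139% against 0.175%, 0.793% and 0.86%, so that αGlu1 and Ctr1 were nearly equal. Gbp2, Gbp3, Gbp9, Irgm2 and Igtp overlapped in share. Gbp2 held the most in each library, 36.5% ± 1.5 in Ctr and 32.1% ± 3.6 in αGlu (SD, n = 3). With 3 libraries a group an exact permutation test of a single share cannot go below p = 0.10, so none was made.

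Tgtp1 has a near-identical copy, Tgtp2, and 87.7% of the 75-base windows of its longest transcript also occur in a transcript of another gene, 84.8% in Tgtp2. Tgtp2 had 12.3, 80.7 and 98.9 CPM in Ctr and 148, 94.4 and 88.4 CPM in αGlu, so it overlapped. With the reads of both summed, the values were 12.9, 81.3 and 100.3 CPM in Ctr and 150, 103 and 96.2 CPM in αGlu, and the log2 fold change was 0.85 ± 0.69 (edgeR adjusted p = 0.446). The difference of Tgtp1 alone is therefore uncertain as a property of the Irgb6 pair. For the other 9 members between 0% and 11.4% of windows were shared, the most for Gbp7 (11.4%) and Igtp (8.37%, all with Irgm2), and Irgm1 and Iigp1 shared none.

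Of the other genes listed for these families, 16 of 23 passed the filter, 12 of them with a positive log2 fold change, and the median was 0.74. edgeR called 0 of them (0% of all genes), and DESeq2 called 3 of the 16 higher, Gbp6, Gbp11 and Gm12185 (4.23% of all genes). In 7 of them all αGlu values lay above all Ctr values (14.2% of all genes), and the reverse held for 0 (15.9%). Gbp4, Gbp6, Gbp8 and Gbp11 lie beside Gbp9 on chromosome 5, where the annotated spans of Gbp4, Gbp8 and Gbp9 overlap on the same strand, and their values did not go together. Gbp11, annotated as a polymorphic pseudogene, had 1.45, 4.10 and 7.80 CPM in Ctr and 24.9, 38.8 and 31.3 CPM in αGlu. Gbp6 had 14.5, 93.5 and 111 CPM in Ctr and 187, 287 and 245 CPM in αGlu. Their log2 fold changes were 2.83 ± 0.57 and 1.71 ± 0.70, and the groups did not overlap for either. Gbp8 had 8.45, 27.5 and 45.5 CPM in Ctr and 51.3, 10.6 and 9.83 CPM in αGlu. Like Gbp9 it was highest in αGlu1 and low in αGlu2 and αGlu3, and without both libraries numbered 1 its log2 fold change was -1.84 (edgeR adjusted p = 0.00171). Gbp4 had 1.86, 13.8 and 20.1 CPM in Ctr and 40.3, 31.3 and 23.2 CPM in αGlu. Gbp6 shared 55.2% of its windows with other genes, mostly a gene model beside it, so its level is uncertain.

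Gbp2b, next to Gbp2 on chromosome 3, was at 0.136 to 0.974 CPM in Ctr and 0.513 to 2.81 CPM in αGlu, and Gbp10 at 0 to 0.557 and 0.110 to 2.24 CPM, both overlapping. Of the IRG relatives, Ifi47 (Irgd) had 40.0, 120 and 144 CPM in Ctr and 172, 156 and 151 CPM in αGlu. Gm4951, F830016B08Rik and Gm12185 had log2 fold changes of 0.70 ± 0.43, 0.88 ± 0.42 and 1.17 ± 0.38, and these 3 genes and Ifi47 did not overlap between groups. Irgq, a quasi-IRG, was at 20.9 to 27.7 CPM in Ctr and 20.02 to 24.6 CPM in αGlu, with its highest value in Ctr1. Gm5431 and Gvin1, a very large inducible GTPase, had log2 fold changes of 0.16 ± 0.45 and 0.21 ± 0.39. The tandem genes 9930111J21Rik1 and 9930111J21Rik2 had -0.22 ± 0.49 and -0.31 ± 0.46. Without both libraries numbered 1 they were called lower with Gbp8, 3 genes where 9.9% of all genes were called lower. The same fit called 4 genes of this list higher, Gbp6, Gbp11, Gm12185 and Gm4841, where the share of all genes was 8.28%. Gm4841 did not pass the filter with all libraries. Gvin1 shared 98.3% of its windows with other genes, and 9930111J21Rik1 shared 70.9%.

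**Figure D3:**
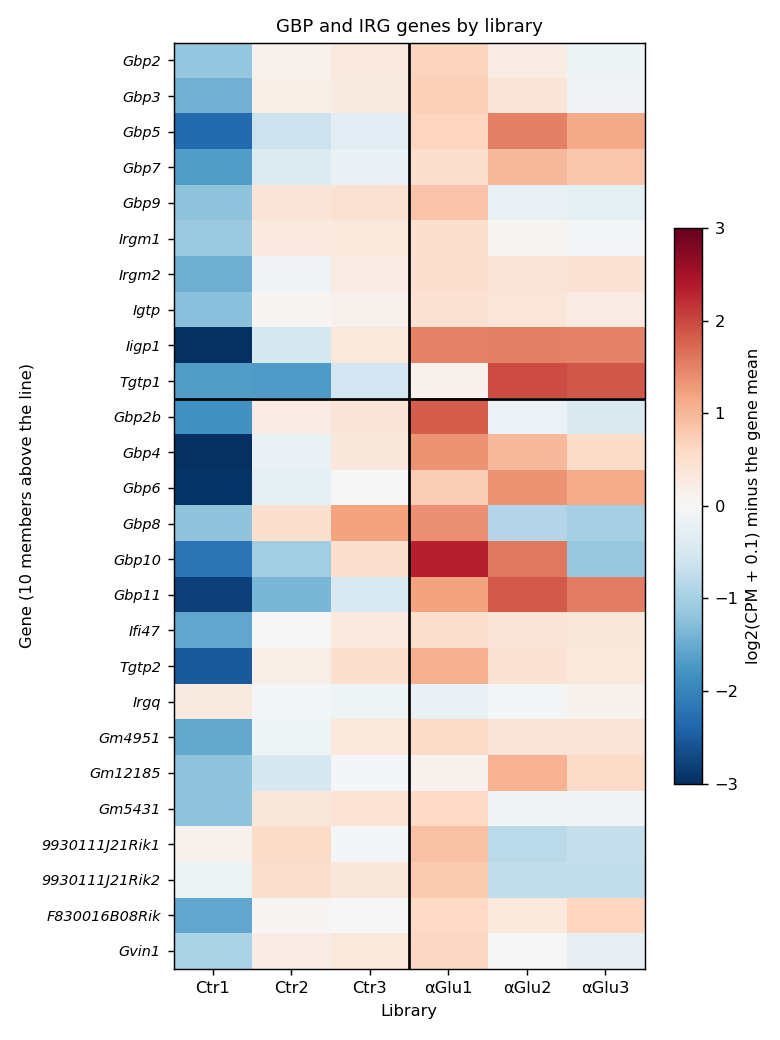
log2(CPM + 0.1) of each gene minus its mean over the 6 libraries, for the 10 members above the horizontal line and 16 other tested GBP and IRG genes under it; red is above and blue below the gene's mean, and colours stop at 3. Ctr1 is blue in most rows, and Gbp5, Gbp7, Tgtp1 and Gbp11 are darkest red in αGlu2 whereas Gbp8, Gbp9 and the 9930111J21Rik genes are blue in αGlu2 and αGlu3.

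Promoters were read for 8 members from RefSeq on GRCm38.p6, as 250 bases before and 50 bases after the transcript start, and searched on both strands for an ISRE-like pattern, GAAANNGAAA, the kind of site bound by IRF factors, and for a GAS-like pattern, TTCNNNGAA, known as an interferon-gamma activated site, which reads the same on both strands. The ISRE-like pattern occurred in 8 of the 8 promoters and in 3.44% of all 32851 promoters. The GAS-like pattern occurred in 5 of the 8, those of Gbp5, Gbp7, Irgm2, Igtp and Tgtp1, and in 8.3% of all promoters. Both together occurred in 0.454% of all promoters. Gbp3 has 2 listed starts, and the promoter at the second held neither pattern. The stretches that hold the matches are printed with up to 6 flanking bases, in the direction of the gene, with the matched bases in capitals; on the opposite strand the ISRE-like pattern appears as its complement, with TTTC in place of GAAA. The first 5 hold both patterns and the last 3 hold the ISRE-like pattern alone.
Gbp5, chr3:142496684-142496896, plus strand: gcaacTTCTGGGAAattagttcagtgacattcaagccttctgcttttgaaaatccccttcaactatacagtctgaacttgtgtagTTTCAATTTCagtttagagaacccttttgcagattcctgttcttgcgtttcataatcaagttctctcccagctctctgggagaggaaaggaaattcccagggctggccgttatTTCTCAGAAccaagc
Gbp7, chr3:142530224-142530298, plus strand: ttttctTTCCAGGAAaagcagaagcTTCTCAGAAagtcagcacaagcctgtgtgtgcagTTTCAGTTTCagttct
Irgm2, chr11:58214896-58214928, plus strand: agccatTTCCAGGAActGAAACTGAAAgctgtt
Igtp, chr11:58199505-58199537, plus strand: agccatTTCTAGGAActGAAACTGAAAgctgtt
Tgtp1, chr11:48992308-48992340, minus strand: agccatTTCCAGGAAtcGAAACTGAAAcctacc
Gbp2, chr3:142620598-142620619, plus strand: ttttagTTTCACTTTCactgtc
Gbp3, chr3:142559993-142560020, plus strand: acacagTTTCAGTTTCTATTTCccagat
Irgm1, chr11:48871429-48871456, minus strand: tttcaaGAAATAGAAACCGAAActgatt

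The Irgm2 and Igtp stretches were identical at 32 of 33 bases, and they shared 27 and 26 bases, respectively, with that of Tgtp1. In all 3 genes 2 bases separated the GAS-like from the ISRE-like match, at different distances from the start. The 5 members with both patterns were all among those with no overlap between Ctr and αGlu, and the 3 with the ISRE-like pattern alone, Gbp2, Gbp3 and Irgm1, all overlapped. Among other tested family genes with a promoter read and both patterns, Tgtp2 overlapped between the groups and Gm12185 did not. The reads of Tgtp1 summed with those of Tgtp2 overlapped as well. Of the relatives with neither pattern, Ifi47 did not overlap between the groups, while Irgq, Gm5431 and 9930111J21Rik2 did. Gbp2b and 9930111J21Rik1, with the ISRE-like pattern alone, overlapped. Gbp9 and Iigp1 were not read. The pattern was looked for after these values were known, on 8 genes, and it is a description of letters only. Over the other tested genes with a promoter, the share with all αGlu values above all Ctr values was 23.1% of 52 genes with both patterns, 20% of 325 with the ISRE-like pattern alone, 15.7% of 713 with the GAS-like pattern alone and 13.9% of 8297 with neither. The share with their lowest value in Ctr1 was 50%, 34.8%, 24.3% and 20.4% in the same order.

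**Figure D4:**
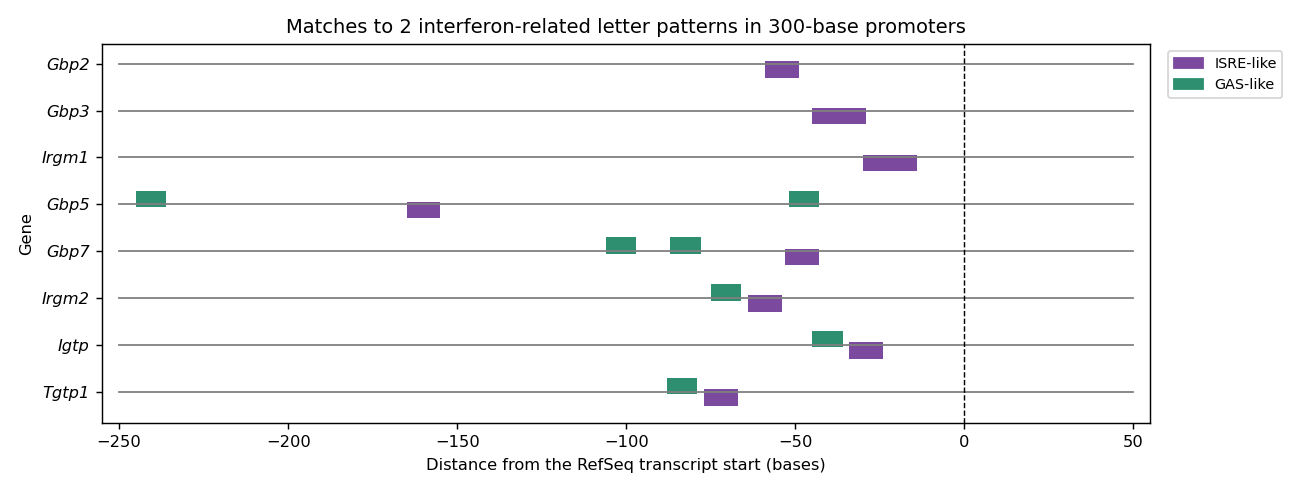
Position of ISRE-like (purple) and GAS-like (green) matches in the promoters of 8 members, in bases from the RefSeq transcript start at the dashed line. All 8 promoters carry the ISRE-like pattern, and Gbp2, Gbp3 and Irgm1 carry no GAS-like match in this window.

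The ligands were at the limit of detection. Ifng had 0 reads in the Ctr libraries and in αGlu1, 3 reads in αGlu2 and 2 in αGlu3, and Ifnb1 had the same counts. These are at or under the 3 reads that a count of 0 allows, so neither a presence nor a difference can be read from them at this depth. Of the receptors, Ifngr1 had 138, 99.6 and 127 CPM in Ctr and 117, 259 and 314 CPM in αGlu, with αGlu1 inside the Ctr range. Ifngr2 had 181, 194 and 198 CPM in Ctr and 210, 260 and 261 CPM in αGlu, with no overlap. Ifnar1 had 95.3, 85.9 and 77.3 CPM against 89.1, 203 and 189 CPM, and Ifnar2 had 93.8, 101 and 110 CPM against 120, 255 and 217 CPM. In each receptor gene αGlu1 was nearer to Ctr than αGlu2 and αGlu3 were.

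The signalling genes differed among themselves. Stat2 had 117, 362 and 361 CPM in Ctr and 385, 384 and 348 CPM in αGlu. Irf9 had 53.9, 79.6 and 87.0 CPM in Ctr and 83.8, 88.5 and 87.7 CPM in αGlu. For Stat2 and Irf9 only Ctr1 stood apart. Irf1, an interferon-induced transcription factor, was highest in αGlu1, with 225, 277 and 315 CPM in Ctr and 393, 237 and 221 CPM in αGlu. Of the other signalling genes, Socs1, an inhibitor of the JAK kinases, had 7.27, 8.94 and 9.23 CPM in Ctr and 12.2, 38.6 and 39.6 CPM in αGlu, and Jak2 had 142, 213 and 216 CPM in Ctr and 207, 762 and 840 CPM in αGlu. Irf7 and Usp18 on the type I side had log2 fold changes of 1.41 ± 0.83 and 0.99 ± 0.57, and of 0.89 ± 0.22 and 0.56 ± 0.21 without Ctr1. edgeR called none of these genes, 0 of 10 tested on the interferon-gamma side and 0 of 9 on the type I side (0% of all genes). On these sides 4 and 3 genes had no overlap and were higher in αGlu (14.2% of all genes). DESeq2 called 2 and 0 of them higher (4.23% of all genes).

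All 20 type I response genes passed the filter, with a median log2 fold change of 0.53 over all libraries and 0.09 without Ctr1. In αGlu 8 of them were higher with no overlap (14.2% of all genes), and DESeq2 called 1 higher (4.23% of all genes). The mean deviation of the 20 genes from the average library was -2.15 in Ctr1 and 0.20 to 0.71 (log2) in the other 5. The 2 with the largest fold changes were Oasl1, at 1.57 ± 0.79 (1.06 ± 0.31 without Ctr1), and Ddx60, at 1.10 ± 0.44 (0.73 ± 0.11). Of 18 tested interferon-gamma response genes, 12 did not overlap and were higher in αGlu (14.2% of all genes) and 1 was lower (15.9%). DESeq2 called 8 of the 18 higher (4.23% of all genes), and the median was 0.79 over all libraries and 0.48 without Ctr1. The lower gene was Ciita, the activator of MHC class II genes, named after its values were seen, with 136, 150 and 116 CPM in Ctr and 102, 73.8 and 80.5 CPM in αGlu. Its log2 fold change was -0.65 ± 0.16. The chemokine gene Cxcl9 had 2 reads in Ctr1, none in Ctr2 and Ctr3, and 5.85, 6.42 and 3.34 CPM in αGlu. Ccl5 had 3.59, 7.86 and 13.5 CPM in Ctr and 274, 1090.3 and 1031 CPM in αGlu. The mean deviation of the interferon-gamma response list was -1.34, -0.76 and -0.59 in Ctr and 0.35, 1.26 and 1.08 in αGlu, and that of the GTPases was -1.77, -0.23 and 0.09 in Ctr and 0.64, 0.72 and 0.54 in αGlu. These means cover members that went apart, since Gbp2, Gbp3, Gbp9 and Irgm1 overlapped between the groups, and the likeness of the lists was not tested.

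**Figure D5:**
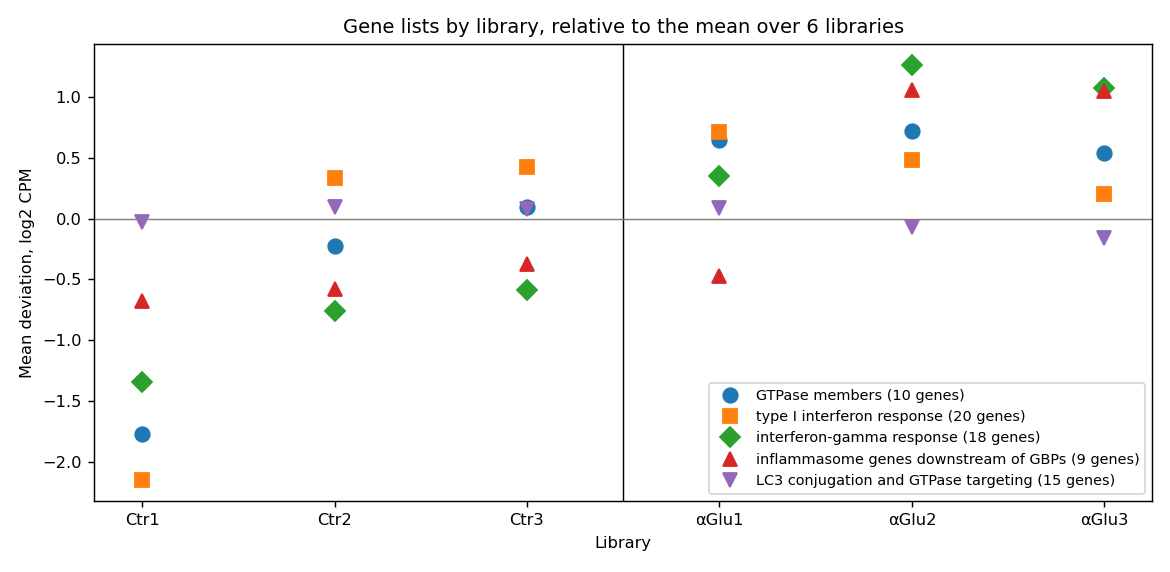
Mean over the genes of a list of log2 CPM minus the gene's mean over the 6 libraries, for the 10 GTPase genes and 4 other lists, 1 symbol per library. The type I response list is separated by Ctr1 alone, the interferon-gamma response list is higher in every αGlu library, and the inflammasome list is high in αGlu2 and αGlu3 only.

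The GTPases are placed on vacuoles by the LC3 conjugation machinery. Of 15 tested genes listed for LC3 conjugation or for GTPase targeting, 5 had a positive and 10 a negative fold change. The median was -0.07, and edgeR called 0. In 4 of them, Gabarapl1, Gabarapl2, Map1lc3b and Ube2l3, named after their values were seen, every αGlu value lay under every Ctr value (15.9% of all genes). Without overlap, 1 was higher (14.2% of all genes). The largest differences were in Gabarapl1, a member of the LC3 family, with 253, 254 and 227 CPM in Ctr and 211, 102 and 90.4 CPM in αGlu, and in Atg7, which starts LC3 conjugation, with 91.6, 91.4 and 81.2 CPM against 84.5, 56.7 and 49.1 CPM. Without both libraries numbered 1, Gabarapl1 had a log2 fold change of -1.32 (edgeR adjusted p = 0.000215). Of 9 inflammasome genes, 2 did not overlap and were higher (14.2% of all genes) and 1 did not overlap and was lower (15.9%). DESeq2 called 3 higher (4.23% of all genes). Nlrp3, the sensor that Gbp5 acts on, had 11.9, 7.98 and 14.2 CPM in Ctr and 14.97, 73.3 and 88.3 CPM in αGlu, so that in αGlu1 Gbp5 was above Ctr while Nlrp3 was close to it. Il1b had the largest fold of that list, and in αGlu1 it had 1 read. Of 10 tested dynamin superfamily GTPases outside the GBPs and IRGs, 6 had a positive fold change, with a median of 0.12. The largest were the antiviral genes Mx1, at 0.92 ± 0.81, and Mx2, at 0.87 ± 0.61, which are also type I response genes.

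The genes outside the 10 whose log2 CPM over the 6 libraries was most like the mean standardized profile of the members were Gbp4 (Pearson's r = 0.999), Slfn8 (0.997), Cgas (0.996), Parp11 (0.995), Tap1 (0.995), Sp140 (0.995), Psmb9 (0.994) and Trim30a (0.994). They were taken for their likeness over only 6 libraries that share the low value of Ctr1, so the values describe this ranking. Slfn8 had 57.9, 142 and 168 CPM in Ctr and 214, 210 and 196 CPM in αGlu, and Cgas, the sensor of cytosolic DNA, had 11.7, 16.3 and 16.7 CPM against 17.95, 17.6 and 17.3 CPM. Tap1 and Psmb9 serve antigen processing and were also on the interferon-gamma response list. Among the members themselves, Igtp (0.997), Irgm2 (0.992) and Iigp1 (0.988) followed the mean profile most closely and Tgtp1 (0.655) and Gbp9 (0.770) least.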

How the data were processed

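BMDM mRNA of 3 Ctr and 3 αGlu libraries was sequenced by the authors with a stranded mRNA kit. The authors deposited 1 table with counts per gene and TPM for each library; counts are raw reads per gene and TPM were scaled by the authors for length and depth. Their CPM and RPKM columns were not used. The submitters' processing notes name GRCm38; read annotation and normalization were done by the authors in the QIAGEN RNA-seq Analysis Portal, and the aligner and annotation release are not given in the sources used here. Of 41549 gene identifiers, 41474 occur in GENCODE M21. A blank last row was dropped. Genes passing edgeR's filterByExpr (minimum count 10, total 15; 11933 genes) were scaled by TMM and fitted with glmQLFit and glmQLFTest on the group alone, with Benjamini-Hochberg adjustment over all of them; a two-sided call needed an adjusted p under 0.1 together with a log2 fold change beyond 1 in size. The standard error is the fold change over the root of F. DESeq2, limma-voom, other scalings, no filter, the library number as a block and leaving out libraries were tried. Promoters came from RefSeq (GRCm38.p6). Software was R 4.3.3, edgeR 4.0.16, limma 3.58.1 and DESeq2 1.42.0.

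The members and lists were chosen with earlier results of these data known. Named genes were the 10 members, all tested genes of the family list, fixed interferon pathway genes (1 item is not reported here), the 2 tested genes with the largest absolute fold change in each other list, and the 8 most like the members among genes averaging 3 or more in log2 CPM. The scripts were tested on simulated data. Depth was 17912831 to 30386653 reads, so among the members counting error matters chiefly for Tgtp1. It also matters for other scarce genes, among them Ifng, Ifnb1, Cxcl9, Gbp2b, Gbp10 and Gm4841, and for Il1b in Ctr and αGlu1.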

Additional observations from a re-analysis of the deposited data

How the results depend on the processing

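No member passed both thresholds with edgeR under RLE factors, scaling by library size only, every gene kept, no limit on the fold, limma-voom or the library number as a replicate block. DESeq2 called 4 members, edgeR with 1 library left out called 0 to 3, and edgeR without both libraries numbered 1 called 4. The median log2 fold change of the 10 genes stayed positive under every alternative, at 0.32 to 0.94 with 1 library left out, 0.27 without both libraries numbered 1 and 0.87 on log2(TPM + 1). The number of members without overlap in either direction was 6 with all libraries (30.2% of all genes tested). It was 6 with 1 library left out, or 7 without αGlu3 (33.5% to 65.8% of all genes over these). Without both libraries numbered 1 it was 8 (6 higher and 2 lower), where 73.4% of all genes did not overlap. By share of summed TPM with all libraries it was 5, with Gbp5, Gbp7, Iigp1 and Tgtp1 higher and Irgm1 lower. That measure is defined for the members only and has no share over all genes beside it. Gene by gene, 122 of 141 values kept their direction and the main fit's lack of a call. The values on log2(TPM + 1) have no call to keep. Reversals came without Ctr1 in Gbp9 (-0.20) and Irgm1 (-0.11), without αGlu1 in Gbp9 (-0.32), and without both in Gbp2 (-0.18), Gbp3 (-0.065), Gbp9 (-0.68) and Irgm1 (-0.29); the cause was not tested. With 1 library left out Gbp9 ranged from -0.32 to 0.41 and Irgm1 from -0.11 to 0.42. The share by summed TPM and the summed reads of Tgtp1 and Tgtp2 (0.85) were added after seeing the data. After centring on the group mean, libraries that carry the same number had correlations of 0.08, 0.06 and 0.15 across genes, and each library correlated best with its own number. These correlations were low and the labels do not say what the numbers mean. A pairing is therefore possible but was not used in the main fit. With the replicate block the median was 0.78 and 0 members were called. Tgtp1, with 13 to 30 reads in Ctr, is the member whose values depth limits most, and groups of 3 libraries are too small for a test of single outlying libraries.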
